A study of Mus musculus with 23 samples.

Results

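Hes1, Hes6, Hey1, Hey2, Heyl, Nrarp, Bhlhe40 and Bhlhe41 are genes of the Hes and Hey family of transcriptional repressors, their relatives, and a feedback inhibitor of Notch. They were chosen by name, by matching the gene identifiers of both deposited tables to mouse symbols, and are 8 of 47643 genes listed. All 8 were found. Their transcripts were measured by QuantSeq, a 3′ mRNA sequencing method, in 23 bulk mammary tumors of mice that carry the polyoma middle T oncogene (PyMT), with 1 library per tumor. In the neutralization experiment, PyMT wildtype (WT) mice received 100 µg of a human IgG1 isotype control (isotype, 5 tumors) or of an antibody to the IL-1 family cytokine IL-38 (anti-IL-38, 6 tumors) weekly for 5 weeks, beginning once a tumor measured 0.6 cm. In the γδ T cell experiment, hamster IgG was given to PyMT WT mice (WT + IgG, 4 tumors) and to PyMT mice with germline loss of IL-38 (KO + IgG, 4 tumors), and an antibody to the γδ T cell receptor was given to PyMT IL-38 KO mice (KO + anti-γδTCR, 4 tumors), each for 5 weeks from an age of 13 weeks. The first dose was 500 µg and the later doses 200 µg. All mice were female on a C57BL/6 background, and the ages at harvest of the first experiment depended on tumor size.

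When a Notch receptor is cut after binding a Delta or Jagged ligand on a neighboring cell, its intracellular part joins the DNA-binding protein RBPJ and switches on target genes. Hes and Hey proteins are the classical products of these targets: basic helix-loop-helix (bHLH) factors that repress transcription, and Hes1 also represses its own promoter. In mammary epithelium, Notch acts in luminal cells, and in tumors it also acts in vessels, where Hey genes belong to the arterial program and Heyl to mural cells, and in immune cells.

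Hes proteins end in a short stretch, WRPW, that recruits co-repressors of the Groucho (Tle) family, and Hey proteins carry a variant of it that does not bind Groucho in the same way. The coding bases are shown because they divide the genes by type. In the GENCODE M21 transcripts the 12 bases that encode this tetrapeptide, in capitals, follow 12 coding bases in lower case and precede up to 6 more.
Hes1: tcggactccatgTGGAGACCGTGGcggaac
Hes6: gctcagagtgtgTGGAGGCCTTGGtga
Hey1: cttggcaagcccTATAGACCTTGGgggaca
Hey2: aacaataaacctTACCAACCCTGGgggaca
The first codon of the stretch, TGG in Hes1 and Hes6, was TAT in Hey1 and TAC in Hey2. For Heyl, Nrarp, Bhlhe40 and Bhlhe41, no stretch of this form was found.

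Promoters are shown for the genes on which the comparisons turned, and for Hey2 because it held matches to the RBPJ site. RefSeq promoters (GRCm38.p6, from 250 bases before to 50 after the start of transcription) matched 4 of the 8 members, Hes6, Hey2, Nrarp and Bhlhe41. They were searched on both strands for GTGGGAA, a core site of RBPJ, and for CACGTG, the E-box bound by Bhlhe40, Bhlhe41 and the clock factors. The 2 motifs do not overlap each other. Capitals mark the matches. The stretches shown are chr10:30842781-30843033 on the minus strand for Hey2, chr2:25180508-25180757 on the plus strand for Nrarp, and chr6:145865421-145865670 on the minus strand for Bhlhe41.
Hey2: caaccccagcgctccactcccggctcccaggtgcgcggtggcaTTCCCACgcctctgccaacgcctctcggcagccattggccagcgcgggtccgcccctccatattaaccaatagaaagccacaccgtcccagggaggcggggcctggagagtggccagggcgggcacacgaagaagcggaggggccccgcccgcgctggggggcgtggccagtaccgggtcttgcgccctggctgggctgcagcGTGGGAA
Nrarp: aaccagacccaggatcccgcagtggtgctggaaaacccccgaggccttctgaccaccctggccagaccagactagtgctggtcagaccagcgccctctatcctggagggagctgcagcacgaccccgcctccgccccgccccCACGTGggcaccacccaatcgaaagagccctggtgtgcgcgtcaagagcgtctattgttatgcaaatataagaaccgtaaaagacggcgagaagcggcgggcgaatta
Bhlhe41: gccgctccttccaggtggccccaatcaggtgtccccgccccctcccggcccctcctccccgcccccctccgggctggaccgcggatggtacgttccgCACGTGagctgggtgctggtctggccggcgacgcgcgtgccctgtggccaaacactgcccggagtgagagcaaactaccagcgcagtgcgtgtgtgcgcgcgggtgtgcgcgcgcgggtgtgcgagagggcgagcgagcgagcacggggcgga
Hey2 held 2 matches to the RBPJ site, which began 207 and 4 bases before the start. Nrarp held 1 E-box, 108 bases before the start, and Bhlhe41 held 1 E-box, 153 bases before it. Neither of the 2 promoters of Hes6 held a match. The RBPJ letters stood in 6.38% and the E-box in 7.15% of all 32851 promoters of this length, so a match describes the letters and not a bound site.

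Libraries held 6273049 to 15879164 reads on genes. Replicate 4 of KO + IgG and all 4 KO + anti-γδTCR libraries stood apart: they held 6273049 to 8794202 reads, and processed pseudogenes took 1.34% to 2.03% of these (0.103% to 0.202% in the remaining 18 libraries). A single gene, Gm42418, took 11.3% to 20.1% of their reads and 2.62% to 5.70% in the remaining 18. Their numbers on the sample sheet are 19 to 23 of 23. For the comparison of γδTCR blockade, this difference and the treatment therefore cannot be told apart except within KO + IgG, where values without replicate 4 are given. The transcript of IL-38 itself, Il1f10, was read 0 times in the 23 libraries and gives no check of the genotypes. Luminal epithelial markers (Krt8, Krt18, Epcam and others) summed to 1830 to 5009 CPM (reads on a gene, scaled so that all libraries have the same total) and were present in every tumor, while T cell markers summed to 1.49 to 22.9 CPM. Markers of other cell types are given beside the results they moved with. In bulk tumors, fewer cells of a type and less RNA per cell cannot be told apart.

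Levels are given first as CPM. Reads on Gm42418 count in the totals, which lowers the CPM of other genes and of marker sums in the 5 libraries that stood apart. Since 3′ reads were counted without regard to priming differences between transcripts, levels were compared between groups and not between genes.

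Hes1 (chr16:30064384-30067796, plus strand, GRCm38, 4 exons), the best known repressor among Notch targets, had 392 to 2246 reads per library. Its level was 53.5 to 95.3 CPM in isotype tumors (median 88.7), 71.7 to 144 in anti-IL-38 (median 98.6), 67.5 to 91.3 in WT + IgG (median 71.3), 79.1 to 142 in KO + IgG (median 118) and 59.9 to 128 in KO + anti-γδTCR (median 65.8). The ranges of groups next to each other in the order of medians overlapped throughout. Over all 23 tumors the highest level was 2.69 times the lowest.

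Hes6 (chr1:91411483-91414038, minus strand, 4 exons) encodes a relative that counteracts Hes1 and is not itself a typical Notch target. Its level was 27.2 to 46.7 CPM in isotype, 27.9 to 40.5 in anti-IL-38, 29.8 to 36.2 in WT + IgG and 19.6 to 35.96 in KO + IgG tumors. In KO + anti-γδTCR tumors it was 14.98 to 22.1 CPM. This range overlapped that of KO + IgG tumors, its control in the same experiment.

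Hey1 (chr3:8663359-8667256, minus strand, 5 exons), a Notch target of endothelium and other tissues, varied most within the neutralization experiment. Its level was 30.7 to 113 CPM in isotype (median 61.7) and 27.7 to 104 in anti-IL-38 tumors (median 86.7). In WT + IgG it was 94.7 to 125 CPM (median 111), in KO + IgG 60.4 to 119 (median 89.6) and in KO + anti-γδTCR 93.1 to 133 (median 104). No neighboring ranges in this order were separate.

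Hey2 (chr10:30832359-30842801, minus strand, 5 exons), known from arteries and heart, was near the limit of detection. It had 276 reads in all 23 libraries together and 0 in 3 of them, isotype replicates 2 and 5 and anti-IL-38 replicate 6. A count of 0 allows up to 3 reads, which is 0.217, 0.223 and 0.296 CPM in these libraries, for counting error only. Medians were 0.0747 CPM in isotype, 0.384 in anti-IL-38, 1.43 in WT + IgG, 1.28 in KO + IgG and 0.648 in KO + anti-γδTCR tumors. The single highest value, 5.20 CPM from 72 reads, belonged to anti-IL-38 replicate 2.

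Heyl (chr4:123233556-123249875, plus strand, 5 exons), expressed in vessel walls in many tissues, had 13 to 94 reads per library. It was 1.02 to 2.92 CPM in isotype (median 1.79), 1.11 to 6.42 in anti-IL-38 (median 3.04), 3.69 to 7.66 in WT + IgG (median 4.70), 4.60 to 6.74 in KO + IgG (median 5.14) and 2.87 to 10.7 in KO + anti-γδTCR tumors (median 4.85). All 5 isotype tumors lay below all 4 WT + IgG tumors, both groups being PyMT WT mice with control IgG. Heyl was the 1 member whose levels did not overlap between these groups, and 7.5% of 16099 genes were so separated in either direction, 5.83% with isotype tumors lower. Summed pericyte and smooth muscle markers were 124 to 413 CPM in the former and 361 to 747 in the latter, and the 2 groups belong to different experiments, which this design cannot separate from the mice. The part of these markers in the level of Heyl was not tested.

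Nrarp (chr2:25180758-25183339, plus strand, 1 exon) encodes an ankyrin repeat protein that is induced by Notch and dampens it. Its level was 2.73 to 12.2 CPM in isotype (median 3.34), 2.46 to 11.5 in anti-IL-38 (median 4.40), 2.81 to 6.87 in WT + IgG (median 4.27), 5.39 to 10.8 in KO + IgG (median 6.66) and 2.23 to 4.79 in KO + anti-γδTCR tumors (median 3.41). It had 14 to 172 reads per library. On the other strand lies Gm38287, with 13 reads in all libraries together, too few to alter these counts.

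Bhlhe40 (chr6:108660629-108666925, plus strand) and Bhlhe41 (chr6:145858243-145865558, minus strand), with up to 5 exons each, encode a pair of related repressors that respond to hypoxia and dampen the circadian clock. Bhlhe40 had the narrowest spread of the 8 over all tumors, 41.6 to 99.6 CPM, with medians of 50.3 to 64.9 over the 5 groups. Bhlhe41 was 65.9 to 123 CPM in isotype (median 84.2), 57.2 to 150 in anti-IL-38 (median 83.3), 97.3 to 137 in WT + IgG (median 128), 74.7 to 121 in KO + IgG (median 89.1) and 122 to 203 in KO + anti-γδTCR tumors (median 128). All 4 tumors with γδTCR blockade lay above all 4 KO + IgG tumors, narrowly, with 121.9 CPM in the lowest of the former and 121.1 in the highest of the latter. By normalized counts, 9.54% of all genes tested had no overlap between these groups.

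**Figure D1:**
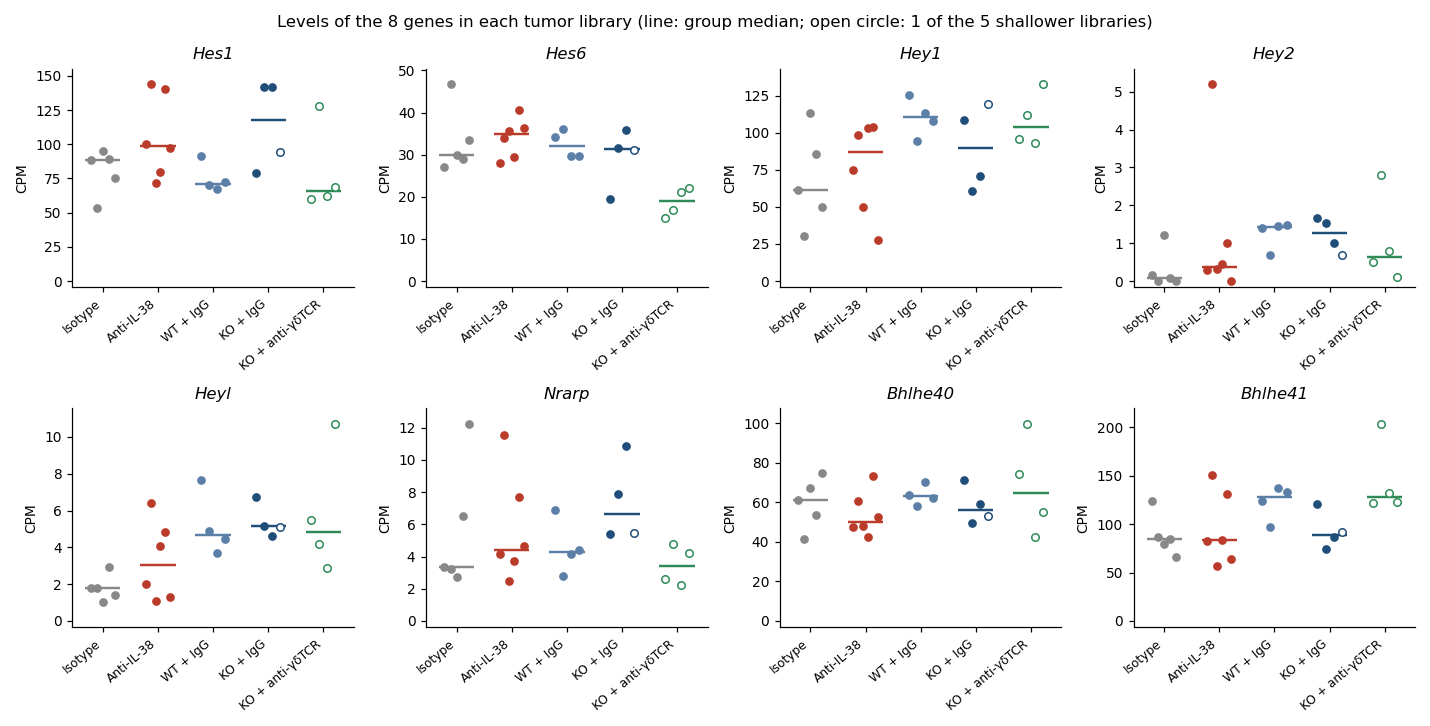
Level of each gene in CPM (vertical axis, a separate scale per gene) in the 23 tumor libraries by group, with a line at the group median and open circles for the 5 shallower libraries. Hes6 in KO + anti-γδTCR tumors (14.98 to 22.1 CPM) and Bhlhe41 in the same tumors (122 to 203 CPM) lie below and above most KO + IgG tumors, and Hey2 is at 0 in 3 libraries.

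The rest of the family was barely detected. Hes3 and Helt had 0 reads in all 23 libraries. Hes5, the Notch target of neural progenitors, reached at most 4 reads, in 5 libraries with any, Hes2 at most 11 in 13 libraries, and Hes7, the segmentation clock gene, at most 28 with at least 1 read in all 23.

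The comparison of anti-IL-38 with isotype asked whether neutralizing IL-38 changed the targets in WT mice. Adjusted p-values here come from limma on log2(normalized count + 1), with Benjamini-Hochberg correction over all genes tested, and values in this and the next comparison are the normalized counts of the table of 19 libraries. At the threshold of 0.05, 0 of the 8 members passed, with limma as with edgeR and DESeq2, where 0%, 0% and 0.469% of all 16002 genes tested passed. Hes1 was the 1 member with an unadjusted p under 0.05 in limma, which 10.5% of all genes also had. Its normalized count was 1078, 681, 1243, 1101 and 963 in isotype replicates 1 to 5, and in the 6 anti-IL-38 tumors the lowest was 1036, the median 1251 and the highest 1880. Anti-IL-38 tumors were above every isotype tumor in 4 of 6 cases, but the groups overlapped. The mean was 1013 ± 211 (SD, n = 5) against 1368 ± 359 (SD, n = 6), a log2 fold change of 0.42 ± 0.19 (SE, limma adjusted p = 0.470, two-sided exact permutation p = 0.0866).

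The remaining members differed by less than the spread between tumors. Heyl was 22.4 ± 8.43 in isotype and 42.5 ± 27.6 in anti-IL-38 tumors, with a log2 difference of 0.69 (95% confidence interval -0.28 to 1.67). For Hey2 the log2 difference was 1.58 (-0.61 to 3.78), and 0.87 with a pseudocount of 5. Without anti-IL-38 replicate 2, which held 72 of its reads, Hey2 fell under the minimum mean count of 5 and was not tested. The log2 differences of Hes6, Hey1, Nrarp, Bhlhe40 and Bhlhe41 were -0.09 to 0.21, with adjusted p-values of 0.841 to 0.933 in limma. No member had groups without overlap, against 1.04% of all genes. In all, 7 of 8 members had a positive difference, with a median of 0.17 against 0.00 over all genes, of which 50.2% were positive. Luminal markers summed to 1830 to 3546 CPM in isotype and 2543 to 5009 in anti-IL-38 tumors, and pericyte and smooth muscle markers to 124 to 413 and 170 to 1660. Their part in these differences was not tested.

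IL-38 KO tumors were compared with WT tumors, both with control IgG, to ask the same of genetic loss. Here 0 of 8 members passed the adjusted threshold in limma, edgeR and DESeq2, against 0.00604%, 0% and 1.84% of 16563 genes. In limma 3 members had an unadjusted p under 0.05, as had 12.1% of all genes: Hes1 and Nrarp were higher and Bhlhe41 was lower in KO tumors. Hes1 was 1046, 851, 787 and 837 in WT replicates 1 to 4, and 934, 1654, 1696 and 1144 in KO replicates 1 to 4. KO tumors were above every WT tumor in 3 of 4 cases, and replicate 1 lay within the WT range. The log2 fold change was 0.59 ± 0.20 (SE, limma adjusted p = 0.310, two-sided exact permutation p = 0.0571), where 4 against 4 tumors allow no p under 0.0286. Without KO replicate 4, the shallow library, it was 0.66 (limma adjusted p = 0.195).

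Nrarp, the feedback inhibitor, was 78.7, 33.9, 48.3 and 51.0 in WT and 63.6, 91.8, 130 and 66.3 in KO tumors. All 4 KO tumors were above the WT median, with 2 of 4 above every WT tumor, and the log2 fold change was 0.72 ± 0.31 (SE, limma adjusted p = 0.395, exact permutation p = 0.0857). Bhlhe41 was 1415, 1176, 1596 and 1546 in WT and 1429, 871, 1039 and 1114 in KO tumors. Its KO values were below every WT value in 3 of 4 cases, with a log2 fold change of -0.38 ± 0.17 (SE, limma adjusted p = 0.406, exact permutation p = 0.0857). Basal and myoepithelial markers moved with Bhlhe41, at 270 to 475 CPM in WT and 180 to 310 in KO tumors, and pericyte and smooth muscle markers were at 361 to 747 and 257 to 406. Other cell types also moved in this comparison, as 7 of 7 macrophage, 5 of 5 adipocyte, 7 of 8 T cell and 4 of 5 markers of dendritic cells of type 1 were lower in KO tumors, with median log2 differences of -0.47, -1.06, -0.94 and -0.72. Their sums were 1930 to 2514 CPM in WT and 853 to 2095 in KO tumors for macrophages, 1239 to 1853 and 265 to 1362 for adipocytes, 9.52 to 22.9 and 5.15 to 16.8 for T cells, and 33.0 to 38.1 and 11.6 to 27.1 for dendritic cells. None of these markers passed the adjusted threshold in limma, while 2 macrophage, 3 adipocyte, 1 T cell and 3 dendritic cell markers had a lower level at an unadjusted p under 0.05. The KO tumors include replicate 4, which stood apart in depth, and no values of these markers without it are given. T cell markers went the other way in 2 other comparisons. There 8 of 8 were higher with anti-IL-38 (median log2 difference 0.87) and 8 of 8 with γδTCR blockade (0.55), with 0 past the adjusted threshold in limma. The part of all these markers in the levels of Hes1, Nrarp and Bhlhe41 was not tested.

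Hes6, Hey1, Hey2, Heyl and Bhlhe40 had log2 differences of -0.32 to 0.12 with adjusted p-values of 0.555 to 0.981 in limma. For Hey1 the 95% confidence interval was -0.80 to 0.15, and for Heyl -0.46 to 0.70. Without KO replicate 4, the shallow library, Hey1 was at -0.49 (limma adjusted p = 0.281). No member had groups without overlap, against 7.06% of all genes. In this comparison 3 of 8 members had a positive difference, with a median of -0.07 against 0.01 over all genes. An interaction term over the 19 libraries, the effect of the antibody minus that of the knockout, had adjusted p-values of 0.753 to 0.986 for the 8 members (limma), where 0.00612% of all genes passed. It was largest for Hey2, at 1.61 ± 1.28 (SE, log2), and was 0.48 ± 0.32 for Bhlhe41.

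Pooling both ways of inhibiting IL-38 (10 tumors) against both controls (9 tumors) gave 0 of 8 members past the adjusted threshold in limma, edgeR and DESeq2, against 0%, 0.00612% and 0.428% of 16352 genes. Hes1 alone had an unadjusted p under 0.05 in limma, as had 10.5% of all genes. Its normalized count had a lowest value of 934, a median of 1251 and a highest of 1880 in inhibited tumors, against 681, 963 and 1243 in controls. Inhibited tumors were above the control median in 9 of 10 cases, and the groups overlapped. The log2 fold change was 0.50 ± 0.14 (SE, 95% confidence interval 0.20 to 0.79, limma adjusted p = 0.268). A two-sided exact permutation test of Hes1 by itself gave p = 0.00481, before any correction for the number of genes. It exchanged tumors freely between the 2 experiments, which differ in control antibody, dose and start, and neither it nor this fit held a term for the experiment. Over 29 settings, a term for the experiment among them, the log2 fold change of Hes1 was 0.44 to 0.55. Within the 2 experiments, which share these samples, the values were 0.42 and 0.59 as above.

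For Nrarp the pooled log2 difference was 0.38 (-0.23 to 0.98), for Heyl 0.40 (-0.37 to 1.17) and for Hey2 0.82 (-0.70 to 2.34). Hes6, Hey1, Bhlhe40 and Bhlhe41 were between -0.11 and 0.01 on the log2 scale. The median over the 8 was 0.19, against 0.00 over all genes, and in no member were the groups without overlap, as in 0% of all genes.

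**Figure D2:**
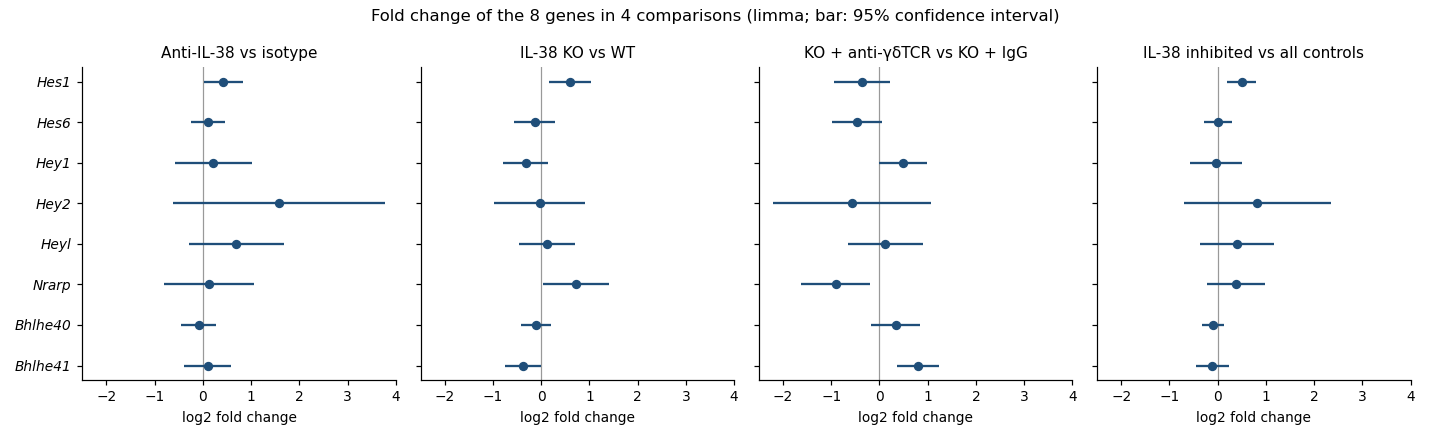
Log2 fold change (horizontal axis) of each gene in the 4 comparisons, with bars for the 95% confidence interval of the limma fit. Hes1 lies above 0 in the comparisons with IL-38 inhibited (0.42, 0.59 and 0.50), Nrarp (-0.91) and Bhlhe41 (0.80) differ most clearly from 0 under γδTCR blockade, and Hey2 has the widest intervals.

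The last comparison, in the table of 8 libraries, asked what blocking the γδTCR changed in IL-38 KO tumors. It shares its control tumors with the comparison of genotypes, so directions in the 2 are not independent. In limma and edgeR 0 of 8 members passed the adjusted threshold, and so did 0% of 16481 genes in each. With DESeq2, 1 member passed, Bhlhe41 (log2 0.81, adjusted p = 0.0102), where 6.27% of genes passed. Unadjusted p-values under 0.05 in limma belonged to Nrarp and Bhlhe41, and to 21.7% of all genes. These were also the 2 members whose groups did not overlap, which held for 9.54% of genes.

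Nrarp was lower with blockade. Its normalized count was 47.8, 69.6, 100 and 51.9 in KO + IgG replicates 1 to 4, and 27.5, 46.9, 25.3 and 40.7 with anti-γδTCR. Every treated tumor lay below every control, by a margin of less than 1 normalized count between 46.9 and 47.8. The log2 fold change was -0.91 ± 0.32 (SE, limma adjusted p = 0.133, two-sided exact permutation p = 0.0286, the smallest possible). Without KO + IgG replicate 4 it was -1.01 (limma adjusted p = 0.0840).

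Bhlhe41 was higher with blockade. It was 1073, 661, 803 and 872 in KO + IgG tumors and 1277, 1990, 1502 and 1192 in treated tumors. All 4 treated values lay above all controls, and the log2 fold change was 0.80 ± 0.20 (SE, limma adjusted p = 0.0657, two-sided exact permutation p = 0.0286). Leaving out KO + IgG replicate 4 gave 0.82 (limma adjusted p = 0.0261), in a fit where 14.3% of all genes passed. Basal and myoepithelial markers were at 180 to 310 CPM in KO + IgG and 192 to 561 in treated tumors, and all 6 of these markers had positive differences with a median of 0.54. Gm43909, on the other strand of Bhlhe41, had 46 reads in all libraries against 28293 for Bhlhe41.

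Hey1 was 962, 534, 655 and 1134 in KO + IgG and 1003, 1098, 1057 and 1283 in treated tumors. The groups overlapped through replicate 4 of KO + IgG, and the log2 fold change was 0.49 ± 0.23 (SE, limma adjusted p = 0.240, exact permutation p = 0.143). Without that replicate, the library that resembles the treated ones in depth, it was 0.67 and passed the threshold (limma adjusted p = 0.0460). In that fit 2 members, Hey1 and Bhlhe41, were called, as were 14.3% of all genes. There, no control shares the depth of the treated libraries.

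Hes6 was 173, 279, 333 and 297 in KO + IgG and 157, 166, 239 and 213 in treated tumors, a log2 fold change of -0.46 ± 0.23 (SE, limma adjusted p = 0.283, exact permutation p = 0.114). Hes1 was 701, 1254, 1310 and 896 against 628, 1251, 709 and 668. In 3 of 4 treated tumors Hes1 was below the control median, replicate 2 was not, and the log2 fold change was -0.37 (95% confidence interval -0.95 to 0.21). For Hey2, Heyl and Bhlhe40 the log2 differences were -0.57, 0.12 and 0.34 with adjusted p-values of 0.434 to 0.877 in limma. Hey2 was at -0.083 in edgeR and -0.049 in DESeq2. The median over the 8 members was -0.12, against 0.02 over all genes, and 4 of 8 were positive.

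Other cell type and cycle markers also differed between these groups. Macrophage markers summed to 853 to 2095 CPM in KO + IgG and 655 to 1064 in treated tumors, adipocyte markers to 265 to 1362 and 60.9 to 320, proliferation markers to 521 to 707 and 291 to 473, and luminal markers to 3186 to 3732 and 3336 to 4245. Endothelial markers were alike in range (160 to 197 and 133 to 229). What these differences contribute to Hes6, Nrarp, Hey1 and Bhlhe41 was not tested.

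The Notch pathway around these targets was read from lists of its parts. In limma no gene of any list passed the adjusted threshold in any of the 4 comparisons, nor did any with edgeR. Of 9 ligands and receptors 8 were tested, and 7 had positive differences in the comparison of antibody, of knockout and of both pooled, with medians of 0.50, 0.19 and 0.34. Dll1, a Delta ligand, led in all 3, with log2 fold changes of 1.32 ± 0.30, 1.02 ± 0.26 and 1.19 ± 0.21 (SE) and adjusted p-values of 0.326, 0.224 and 0.0734 in limma. DESeq2 called Dll1, and no other gene of this list, in each of the 3 (adjusted p = 0.0154, 0.0280 and 1.7e-04), where it called 0.469%, 1.84% and 0.428% of all genes. Under γδTCR blockade 6 of 8 were positive, with a median of 0.34, and Notch4, a receptor of endothelium, had 0.76 ± 0.27 (limma adjusted p = 0.127).

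The 19 genes of receptor processing and the nuclear complex were all tested and were split in direction, with medians of -0.11 to 0.12. In KO tumors Adam10, the protease of the first cut, had a log2 fold change of 0.44 ± 0.14 and Ncstn, a part of γ-secretase, 0.55 ± 0.19 (SE, limma adjusted p = 0.286 and 0.305). Under γδTCR blockade Lfng, which adds sugars to Notch receptors, had 1.47 ± 0.38 (limma adjusted p = 0.0666), and it was called by DESeq2 (adjusted p = 0.0303), as were 6.27% of all genes in that comparison. Among 11 genes of turnover and feedback, Dtx3l was at -0.74 ± 0.17 in KO tumors (limma adjusted p = 0.210, DESeq2 adjusted p = 0.0141). With blockade Mib1, the ubiquitin ligase that activates ligands, was at -0.61 ± 0.14 and Numb, an inhibitor of Notch, at 1.34 ± 0.36 (limma adjusted p = 0.0657 and 0.0692), and DESeq2 called both (adjusted p = 0.00314 and 0.0440, against the same 6.27% of all genes). In the same comparison without KO + IgG replicate 4, limma called 14.3% of all genes, among them Lfng and Psen2 of the processing list and Numb, Mib1 and Fbxw7 of the turnover list. Of the lists that follow it called Myc, Cdkn1a, the clock gene Dbp (log2 1.39, adjusted p = 0.0340) and the hypoxia genes Ndrg1, P4ha1 and Egln3. In that fit no control shares the depth of the treated libraries, so treatment and library difference cannot be told apart. There Lfng was at 1.89, Numb at 1.74, Cdkn1a at -1.73 and Ndrg1 at 1.18, larger in size than in limma with replicate 4. Mib1 stayed at -0.61.

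The 6 Groucho co-repressors (Tle1 to Tle6, with Tle5 listed as Aes) had medians of -0.17 to 0.16. Tle6 was at -0.41 ± 0.17 with anti-IL-38 (limma adjusted p = 0.445). Of 10 other direct Notch targets 9 were tested, with medians of -0.16 to 0.10. Myc, a transcription factor of cell growth, was at 1.56 ± 0.24 in KO tumors and at -1.39 ± 0.35 with γδTCR blockade, 2 comparisons that share the KO + IgG tumors (limma adjusted p = 0.103 and 0.0657). DESeq2 called Myc in both (adjusted p = 7.1e-06 and 0.0135) and Cdkn1a, a cell cycle inhibitor, in the latter at -1.45 (adjusted p = 0.00645). Id3 was at 1.27 ± 0.38 with anti-IL-38 (limma adjusted p = 0.412).

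Since Bhlhe40 and Bhlhe41 answer to the clock and to hypoxia, these genes were read as well. Of 15 clock genes 14 were tested under γδTCR blockade, and 13 had positive differences with a median of 0.32, led by Per1 at 0.95 ± 0.27 and Dbp at 1.09 ± 0.42 (limma adjusted p = 0.0764 and 0.161). In the antibody, knockout and pooled comparisons the clock medians were 0.18, -0.10 and 0.04. Of 12 hypoxia genes 11 were tested, and 10 of these had negative differences with anti-IL-38, with a median of -0.38 and Bnip3 at -0.62 ± 0.25 (limma adjusted p = 0.432). Their medians were 0.17 in KO tumors, -0.09 pooled and -0.34 with blockade, where P4ha1 was at 0.78 ± 0.23 (limma adjusted p = 0.0816, DESeq2 adjusted p = 0.0370). The medians over all genes were 0.00 to 0.02 in the 4 comparisons.

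**Figure D3:**
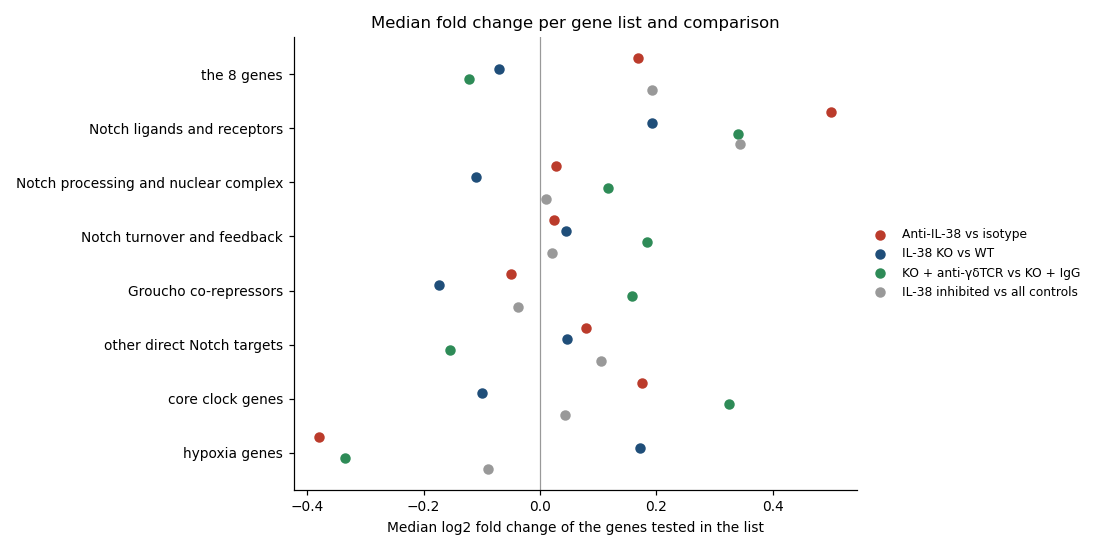
Median log2 fold change (horizontal axis) over the tested genes of each list and over the 8 genes, colored by comparison. Ligands and receptors lie above 0 in all 4 comparisons (0.19 to 0.50), and hypoxia genes are lowest with anti-IL-38 (-0.38) and with γδTCR blockade (-0.34).

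Within groups, the 8 genes varied together only in part. Pearson's r of log2(CPM + 1) after removal of the group means, over 23 libraries that differ in depth, had a median of 0.33 over the 28 pairs and ranged from -0.41 to 0.69. It was positive in 23 pairs and over 0.5 in 5. Hes1 went with Nrarp (r = 0.61), Hey2 (0.60) and Bhlhe40 (0.53), Hey1 with Heyl (0.53), and Hey2 with Bhlhe41 (0.69). Without the 2 libraries farthest from the median these were 0.53, 0.39, 0.36, 0.52 and 0.48. Hes6 had the lowest values, with r = -0.41 to Hey1 and -0.38 to Bhlhe40. These correlations are descriptions, since all points share libraries and cell makeup.

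Against summed cell type markers, Bhlhe41 had the highest values of the 8, with r = 0.90 to basal and myoepithelial and 0.86 to pericyte and smooth muscle markers, and 0.93 and 0.89 in the 18 libraries without the shallow ones. Its r to proliferation markers was -0.52. Hey2, with few reads, had r = 0.75 to luminal, 0.70 to basal and 0.64 to pericyte and smooth muscle markers. Without the 2 libraries farthest from the median these were 0.55, 0.54 and 0.33. Heyl had 0.64 to pericyte and smooth muscle, 0.64 to basal and 0.55 to endothelial markers (0.46, 0.43 and 0.60 without the 2 farthest). Hey1 had 0.59 to basal and 0.56 to luminal markers (0.57 and 0.41 without the 2 farthest). For Hes1, Nrarp and Bhlhe40 no marker list was past 0.5 in either direction, over the 23 or the 18 libraries. Hes1 came close, with r = 0.49 to markers of dendritic cells of type 1 and 0.47 to basal markers (0.46 and 0.47 over the 18). For Hes6 none was past 0.5 over the 23, and its r to macrophage markers was 0.30 over these and 0.61 over the 18 libraries. Acta2, Tagln and Myh11 of the pericyte and smooth muscle list are also made by myoepithelial cells, so those 2 lists are not separate measures.

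**Figure D4:**
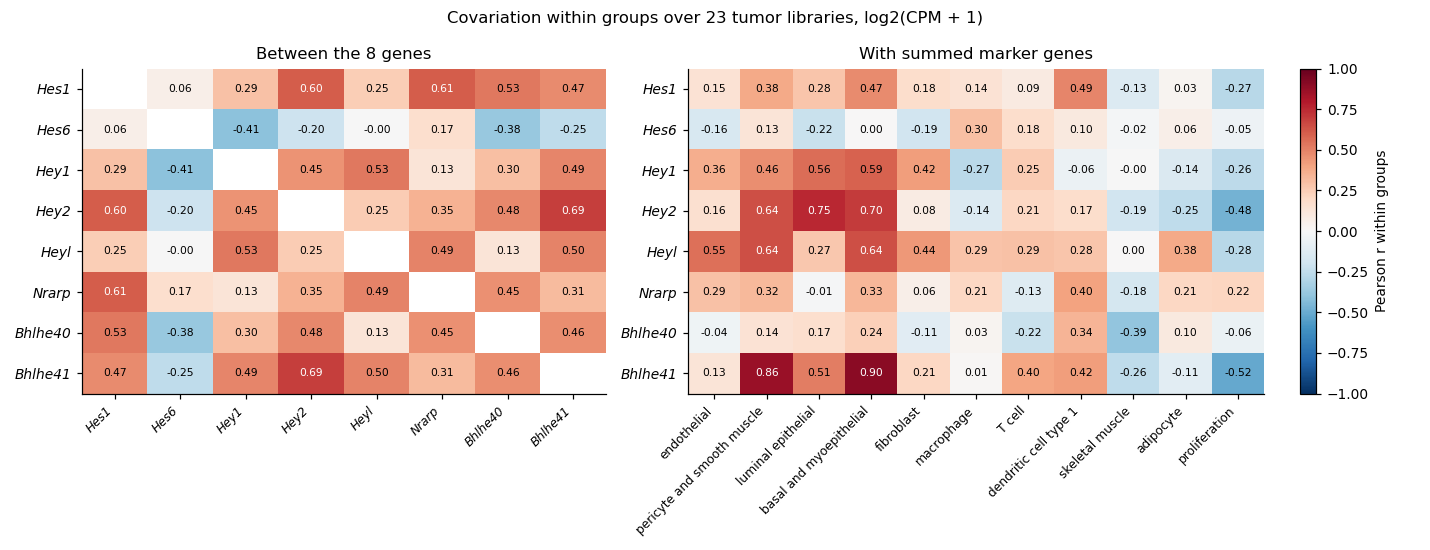
Pearson's r within groups over 23 libraries, between the 8 genes (left) and with the summed CPM of marker genes of 10 cell types and of proliferation (right), from -1 in blue to 1 in red. The row of Bhlhe41 holds the highest values (0.90 and 0.86), and the lowest value between the genes is that of Hes6 and Hey1 (-0.41).

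The genes most like each member were sought among 11674 genes with a mean of at least 50 reads, which left out Hey2 and Heyl. For Hes1 these were Lats2 (r = 0.84), a kinase of the Hippo pathway, Socs3 (0.81), an inhibitor of cytokine signaling, and Lix1l (0.81). For Hey1 they were Crabp2 (0.89), which carries retinoic acid, Ldb3 (0.86) and Rassf9 (0.86). Nrarp was followed by Igfbp4 (0.88), Dpf2 (0.84) and Wfdc2 (0.82), and Hes6 by Eif3g (0.84), Wars (0.83) and Acy3 (0.82). Bhlhe41 had the closest partners, Timp3 (0.94), an inhibitor of matrix proteases, Reln (0.94) and Crispld1 (0.94). Bhlhe40 had Fbxw17 (0.84), Rbm28 (0.77) and Atp2b1 (0.77), and r of the last fell to 0.64 without the 5 shallow libraries.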

How the data were processed

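RNA of 23 PyMT tumors was sequenced with QuantSeq, and the reads were processed with the QuantSeq pipeline of BlueBee Genomics. The submitters' processing notes name STAR, HTSeq, DESeq2 and GRCm39, with no role given. The deposited values are a signal, that is, normalized counts obtained by the authors through division of each library's reads by 1 size factor, separately in a table of 19 and a table of 8 libraries. The 4 KO + IgG libraries stand in both with identical reads. The files hold no coordinates, and names and positions come from GENCODE M21 on GRCm38, a different build from that of the notes, with a symbol for 47224 of 47643 identifiers.

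Whole reads were recovered from all values within 0.0001%, and gave the CPM and the input of edgeR 4.0.16 (quasi-likelihood test) and DESeq2 1.42.0. In WT + IgG replicate 1 a read was worth 0.996, so near 1 that this check says little there. Totals on genes were 6273049 to 15879164 per library. The limits given for libraries without a read of Hey2 cover counting error only. Confidence intervals come from the limma fits and reflect the spread between samples.

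Groups follow the labels. Genes whose normalized counts averaged 5 or more over the libraries compared were tested with limma 3.58.1 in R 4.3.3 on log2(normalized count + 1). Tests were two-sided, with Benjamini-Hochberg adjustment over all genes and a threshold of 0.05. Fold changes of low genes can be understated on this scale, while that of Hey2 with blockade was larger in size than in edgeR and DESeq2. Comparisons were made within a table, so WT + IgG was not tested against KO + anti-γδTCR. For each member a two-sided exact permutation test was added. The members, gene lists and tests were chosen with earlier results of these data known. All members are named, with up to 3 genes of smallest p per list and the 3 genes of highest r per member. Genes named because another tool called them, and Il1f10, were chosen after their values were seen.

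Alternatives were pseudocounts of 0.5 and 5, a filter at a mean of 20 or none, rescaling by TMM or quantiles, DESeq2, edgeR, blocking on the replicate number, a term for the experiment, and the omission of single libraries. Counts of called genes per list with other tools or without KO + IgG replicate 4 were added after seeing the data. The limma fit was also run on simulated counts with large changes and the same spread parameter for all genes. That run cannot show how the fit does with differences as small as those of the members. No 2 libraries of a group were duplicates (chi-square per degree of freedom of at least 15.9). Each library carries its own number in the labels, but nothing in them says that tumors of a group came from separate mice. The p-values therefore set differences against the spread between these samples. The label of KO + anti-γδTCR replicate 3, the library with the fewest reads, also holds the letters rep, with no meaning given.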

Additional observations from a re-analysis of the deposited data

Results flagged for a closer look

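In 5 of 40 sets of a gene in a group, 1 tumor lay far from the others by Dixon's criterion, which chance meets in about 1 of 20 sets. Among the KO + anti-γδTCR tumors replicate 2 stood out in Hes1, at 128 CPM with 69.0 CPM in the next tumor, and in Bhlhe41, at 203 CPM with 132 CPM in the next. The remaining 3 concerned Hey2, which rested on few reads. Isotype replicate 3 had 1.23 CPM of Hey2 with 0.155 CPM in the next tumor, and anti-IL-38 replicate 2 had 5.20 CPM with 1.00 CPM in the next. WT + IgG replicate 2 was low in Hey2, at 0.702 CPM with 1.39 CPM in the next tumor.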

How the results depend on the processing

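In the comparison of γδTCR blockade the number of members called moved from 0 to 1 with DESeq2 (Bhlhe41), and leaving out 1 library gave 0 to 2, the 2 being Hey1 and Bhlhe41 without KO + IgG replicate 4. No other alternative moved a count of members called from 0. Over all genes DESeq2 called 75 with anti-IL-38, 305 in KO tumors, 70 pooled and 1033 with blockade, against 0, 1, 0 and 0 in limma and 0, 0, 1 and 0 in edgeR, and without KO + IgG replicate 4 limma called 2357 with blockade. The cause was not tested. Directions changed only for differences that passed no threshold. Hey2 in KO tumors was 0.0038 in edgeR and 0.0061 in DESeq2. Hes6 pooled was -0.022 with TMM, -0.0132 with quantile normalization and -0.00078 with the experiment as a term. With the replicate block, Hes6 pooled was -0.015 and Hey1 pooled 0.12. Since anti-IL-38 replicate 6 has no partner of its number, the block gave the same estimates as leaving it out where anti-IL-38 tumors entered. The block called 0 members in each comparison, 1 gene of all with anti-IL-38 and 0 in the other 3. Tumors of the same number shared only a number, as the correlation of their deviations was -0.17 to 0.075. Leaving out each library in turn gave these log2 ranges where a sign changed. With anti-IL-38 they were -0.042 to 0.48 for Hey1, -0.11 to 0.47 for Nrarp, -0.21 to 0.0071 for Bhlhe40 and -0.053 to 0.22 for Bhlhe41. In KO tumors they were -0.25 to 0.051 for Hes6, -0.26 to 0.19 for Hey2 and -0.023 to 0.31 for Heyl. With blockade they were -1.19 to 0.062 for Hey2 and -0.19 to 0.36 for Heyl. Pooled they were -0.033 to 0.097 for Hes6 and -0.20 to 0.12 for Hey1, and for the interaction -0.096 to 0.12 for Bhlhe40. Hes1 with IL-38 inhibited, and Nrarp and Bhlhe41 in KO tumors and with blockade, kept their sign in all alternatives. Depth limited Hey2, with 0 to 72 reads per library. Hey2 was not tested with a mean of at least 20 in these 4 comparisons.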

Other observations

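Markers of fibroblasts, conventional dendritic cells of type 1 and skeletal muscle had no r past 0.5 in either direction with any of the 8 genes over the 23 libraries. The r of Hes1 to the dendritic cell markers was 0.49. Fibroblast markers summed to 963 to 3234 CPM in isotype, 1152 to 3528 in anti-IL-38, 2002 to 4940 in WT + IgG, 2667 to 3290 in KO + IgG and 2268 to 7305 in KO + anti-γδTCR tumors. Dendritic cell markers were lowest in IL-38 KO tumors, with medians of 21.7 CPM in KO + IgG and 13.2 in KO + anti-γδTCR against 32.7 to 34.9 in the other 3 groups. All KO + anti-γδTCR libraries and replicate 4 of KO + IgG are among those that stood apart in depth, which these medians do not separate from genotype. In limma none of the 5 markers passed the adjusted threshold, 4 were lower in KO than in WT tumors (3 at an unadjusted p under 0.05, median log2 difference -0.72), and 3 were lower with blockade (median -0.51). Skeletal muscle markers had medians of 29.6 to 247 CPM over the 5 groups and reached 728 CPM in 1 KO + anti-γδTCR tumor.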
